A study of Mus musculus with 7 samples.

Results

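The genes described here code for the machinery that turns collagen chains into crosslinked fibrils in mouse liver slices cultured with or without valproic acid (VPA). They are the chaperone gene Serpinh1, the prolyl 4-hydroxylase subunit genes P4ha1 and P4ha2, the lysyl hydroxylase genes Plod1, Plod2 and Plod3, the lysyl oxidase genes Lox, Loxl1 and Loxl2, and Pcolce. They were taken by symbol for their role, without a threshold on their values but with earlier results of these data known, and make up 10 of the 55487 genes in the deposited table and 10 of the 26086 with a count in at least 1 library. All 10 passed the filter on low counts and were among the 10876 genes tested.

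Precision-cut liver slices (PCLS) are thin discs of living liver in which hepatocytes, hepatic stellate cells (HSCs) and other liver cells keep their places. Slices came from healthy male Balb/c mice and were collected on day 3 of culture, so both groups share the tissue source, the basal medium and the time in culture. The 3 CTR libraries came from medium without VPA and the 4 VPA libraries from medium with 2.5 mM VPA, an inhibitor of class I histone deacetylases that was added to hold back HSC activation. Per the study's methods VPA could be present from the slicing step on. The study's methods give an age range for the mice and count each different liver as a biological repeat. Slice culture numbers 71, 72 and 74 occur in the sample titles of both groups. The labels give neither the age nor the animal behind each library, so the p-values measure only the spread between these libraries. A slice is a mixture of cells, and in such bulk samples fewer cells of a type and less RNA per cell cannot be told apart.

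Collagen chains are made and modified in the endoplasmic reticulum. Prolyl 4-hydroxylase, whose catalytic alpha subunits are coded by P4ha1 and P4ha2, hydroxylates proline residues and so lets the triple helix hold at body temperature. The lysyl hydroxylases coded by Plod1, Plod2 and Plod3 hydroxylate lysine residues, with Plod2 acting on the telopeptides at the chain ends, and Hsp47, the product of Serpinh1, is a chaperone that binds the folded helix. Outside the cell Pcolce enhances the proteinase that removes the C-terminal propeptide, and lysyl oxidases oxidize lysine and hydroxylysine residues to start the crosslinks. In injured liver these steps are mostly the work of activated HSCs and portal fibroblasts, and crosslinked fibrils are the form in which scar persists.

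Promoter sequence is shown because P4ha1, P4ha2 and Plod2 are textbook targets of hypoxia-inducible factors, and hypoxia-inducible genes are compared with the enzymes further on. Sites of these factors include the letters ACGTG, the only form searched here. The RefSeq promoter table for GRCm38.p6 held a window of 250 bases before the start for 6 of the 10 genes, namely Serpinh1, P4ha1, P4ha2, Plod1, Plod3 and Pcolce. The window of P4ha1 spans chr10:59323046-59323295 (plus strand), that of Serpinh1 chr7:99353240-99353489 (minus strand) and that of Plod1 chr4:147936777-147937026 (minus strand), and these are printed because they end at or next to the annotated gene start and none of their bases lies in an annotated exon. The window of P4ha2 also lay outside exons but ended 829 bases inside the annotated gene, that of Pcolce ended 2380 bases inside its gene and had 83 bases in exons, and 208 bases of the Plod3 window lay in exons. Capitals mark ACGTG or, for a match on the other strand, CACGT.
P4ha1: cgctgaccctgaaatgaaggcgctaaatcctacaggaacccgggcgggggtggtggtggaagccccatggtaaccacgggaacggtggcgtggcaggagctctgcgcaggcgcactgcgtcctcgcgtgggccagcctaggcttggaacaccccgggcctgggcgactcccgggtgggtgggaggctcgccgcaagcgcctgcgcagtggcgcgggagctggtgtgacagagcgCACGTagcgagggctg
Serpinh1: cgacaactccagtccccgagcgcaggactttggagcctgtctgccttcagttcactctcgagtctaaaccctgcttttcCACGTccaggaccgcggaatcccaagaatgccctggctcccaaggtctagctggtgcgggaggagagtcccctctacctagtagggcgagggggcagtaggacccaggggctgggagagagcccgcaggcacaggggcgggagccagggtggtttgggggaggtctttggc
Plod1: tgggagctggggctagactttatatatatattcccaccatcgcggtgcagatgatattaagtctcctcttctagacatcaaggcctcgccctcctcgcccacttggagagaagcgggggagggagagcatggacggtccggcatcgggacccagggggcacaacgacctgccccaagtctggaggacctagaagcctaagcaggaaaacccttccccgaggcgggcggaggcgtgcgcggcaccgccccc
The match began 16 bases before the start in P4ha1 and 171 bases before it in Serpinh1, and Plod1 held no ACGTG. The related letters GCGTG were neither searched nor marked, and they do occur in the printed windows of Plod1 and P4ha1. With both strands searched, ACGTG was in 4 of the 6 windows (P4ha1, Serpinh1, P4ha2 and Plod3) and in 16.6% of 32851 promoter windows of the same length. The windows of P4ha2 and Plod3 count among the 4 despite the limits given above, and Plod2 had no window. The GC box letters GGGCGG were in 5 of the 6 windows against 32.7% of all windows, and CCAAT, another common promoter element, was in 1 of 6, that of Plod3, against 33.8%. A match is a string of letters and not a site shown to be bound.

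Library depth ranged from 1400887 to 4773750 counts on genes, with CTR at 1743675 to 4773750 and VPA at 1400887 to 3102450. Values are given as CPM, normalised read counts proportional to a gene's share of its library after TMM scaling, and 3 counts, the most that a count of 0 allows, equal 0.591 to 2.41 CPM depending on the library and cover counting error only. Among the 3842 genes with a mean over 100 counts, 268 of 26894 values were 0 and none was 1, and 232 of these zeros stood in the VPA libraries against 36 in CTR, with 105 in VPA replicate 1 alone. Ppib, a collagen prolyl isomerase gene that nearly every cell uses, was listed at 0 in 5 of the 7 libraries and at 217 and 92 counts in the others. A gene at 0 is therefore called listed at 0. Of the 10 enzyme and chaperone genes, Loxl1, P4ha2, Plod1 and Pcolce had at least 1 such value, so their levels are given by library with no mean, and their fitted fold changes, which count the zeros as measured, stand beside the ratio without them. The part of these zeros in the results was not tested beyond leaving them out, as given beside each gene.

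**Figure D1:**
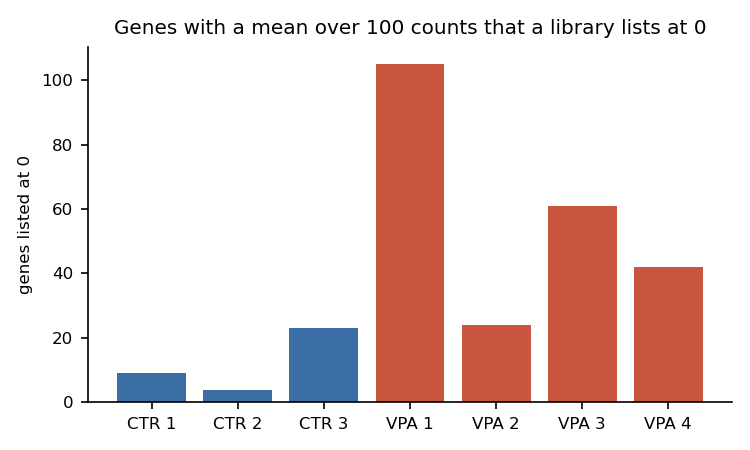
Number of genes with a mean over 100 counts that each library lists at 0. Bars stand for single libraries, CTR in blue and VPA in red, from 4 in CTR replicate 2 to 105 in VPA replicate 1.

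In VPA slices 8 of the 10 genes had a log2 fold change below 0 and 2, P4ha2 and Plod2, above 0, with a median of -0.57 and a range of -4.04 to 0.49. Over all genes tested 54.2% were below 0 and the median was -0.06. None of the 10 passed an adjusted p of 0.05 in edgeR's quasi-likelihood test, in which no gene at all was lower (0%) and 1 was higher. At an unadjusted p of 0.05 Loxl2 and Pcolce were lower, 2 of 10 against 4.62% of all genes tested, and none was higher, against 3.65% of all genes. That count ran from 0 without CTR replicate 1 to 3 without VPA replicate 1, and was 1 without CTR replicate 3 or VPA replicate 3, while the share of all genes ran from 2.83% to 6.22% when each library was left out. Neither Loxl2 nor Pcolce was past that p when the slice culture number or the replicate number was entered as a block. In 1 gene, Pcolce, all 4 VPA libraries were below all 3 CTR libraries, against 7.41% of all genes, and in none were they all above, against 4.44%. The first of these counts was 6 without CTR replicate 2 and 3 without CTR replicate 3 or any of VPA replicates 1, 2 and 4, where the share of all genes also grew, to 14.2% without CTR replicate 2 and to 9.58% to 12.3% in the other 4 settings. DESeq2, the tool named in the study's methods, also called none of the 10 lower, against 0.754% of its 15261 genes called lower.

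Among the 6 genes counted in every library (Serpinh1, P4ha1, Plod2, Plod3, Lox and Loxl2) 5 had a log2 fold change below 0, with a median of -0.46. When the fit was limited to the 6652 genes that had 10 or more counts in each library, where edgeR's common spread between replicates (BCV) came to 0.283, against 0.609 over all tested genes, 4 of these 6 were below 0. There Lox (unadjusted p = 0.0374) and Loxl2 (unadjusted p = 0.0372) were lower, 2 of 6 against 6.22% of genes, and both had an adjusted p of 0.325 by edgeR. No gene of the 6 had VPA libraries all below CTR, against 6.78% of genes in that set. The summed CPM of all 10 genes was 409 to 533 in CTR (477 ± 63.1, SD, n = 3) and 253 to 382 in VPA (319 ± 65.0, SD, n = 4), and the groups did not overlap. This sum includes the values listed at 0 and was not tested, and no share of all genes stands beside it. Summed over only the 6 genes counted in every library, the groups overlap, since VPA replicate 2 is above CTR replicate 2.

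**Figure D2:**
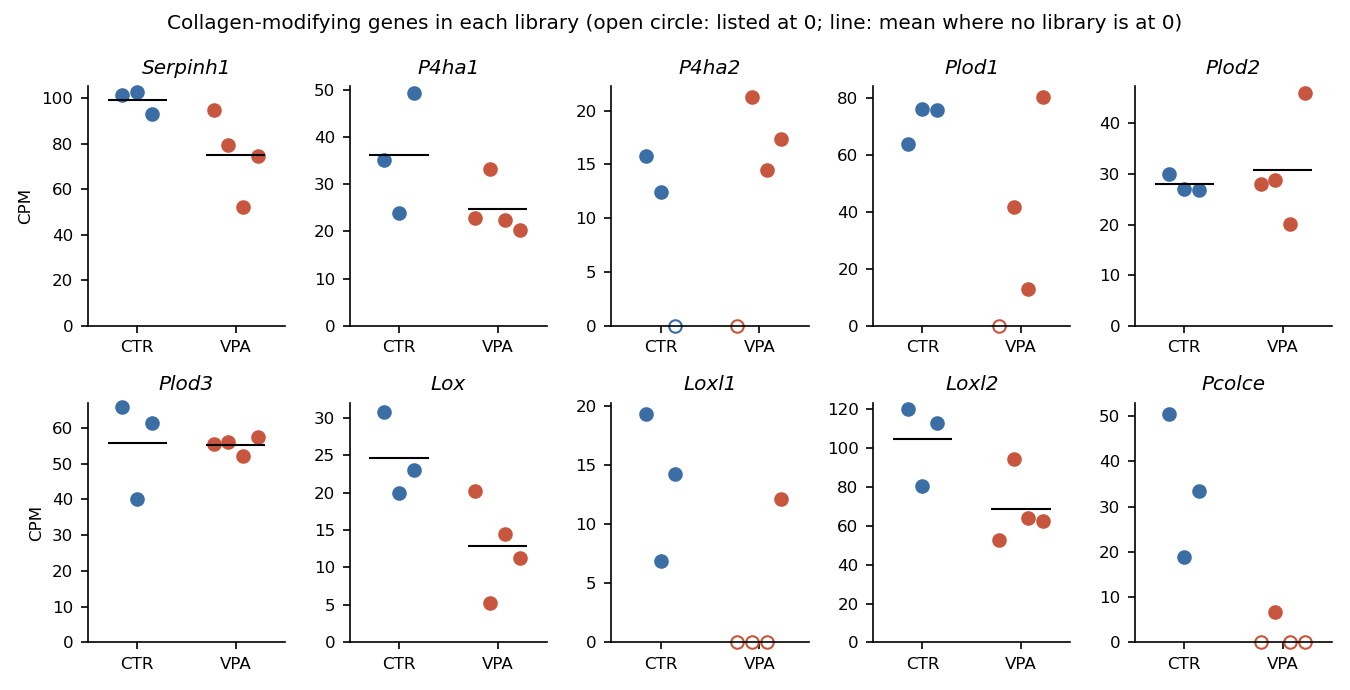
CPM of the 10 genes in each library, with CTR in blue (n = 3) and VPA in red (n = 4), open circles for values listed at 0, and a line at the group mean for genes with no such value. Pcolce has all VPA points below CTR, Plod3 has nearly the same mean in both groups, and the other panels overlap.

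Serpinh1, the collagen chaperone gene (ENSMUSG00000070436, chr7:99345376-99353239, minus strand), was at 102, 103 and 93.2 CPM in CTR replicates 1 to 3 and at 94.7, 79.6, 52.2 and 74.8 CPM in VPA replicates 1 to 4. VPA replicate 1 reached the CTR range, and the other 3 VPA libraries were below every CTR library. The mean was 99.2 ± 5.28 CPM in CTR (SD, n = 3) and 75.3 ± 17.6 CPM in VPA (SD, n = 4), a log2 fold change of -0.40 (SE 0.213, edgeR adjusted p = 0.709) with a 95% interval of -0.89 to 0.10. Over left-out libraries the value ran from -0.52 without VPA replicate 1 to -0.26 without VPA replicate 3.

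The prolyl 4-hydroxylase alpha subunits had fold changes of opposite sign, neither past the test, and both were below 0 without CTR replicate 3. P4ha1 (ENSMUSG00000019916, chr10:59323296-59373304, plus strand) codes for the subunit found in most tissues and was at 35.1, 23.9 and 49.3 CPM in CTR against 22.9, 33.2, 22.5 and 20.4 CPM in VPA. All but VPA replicate 2 were below the lowest CTR library. Its mean was 36.1 ± 12.8 CPM in CTR (SD, n = 3) and 24.7 ± 5.75 CPM in VPA (SD, n = 4), with a log2 fold change of -0.53 (SE 0.336, edgeR adjusted p = 0.779) and a 95% interval of -1.31 to 0.25. The value ran from -0.77 without CTR replicate 2 to -0.27 without CTR replicate 3. P4ha2 (ENSMUSG00000018906, chr11:54100095-54131665, plus strand), which codes for the other alpha subunit, was at 15.8 and 12.4 CPM in CTR replicates 1 and 2 and was listed at 0 in CTR replicate 3. In VPA it was listed at 0 in replicate 1 and stood at 21.2, 14.5 and 17.4 CPM in replicates 2 to 4. The libraries with a count thus ran from 12.4 to 15.8 CPM in CTR and from 14.5 to 21.2 CPM in VPA, which overlap. The log2 fold change was 0.49 (SE 1.47, edgeR adjusted p = 0.968) with an interval of -2.93 to 3.91, and the log2 ratio of means without the values at 0 was 0.33. The fitted value turned to -0.10 without CTR replicate 3.

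Among the 3 lysyl hydroxylases, Plod1 had a fold change below 0 and Plod2 and Plod3 were near 0, with no call for any. Plod1 (ENSMUSG00000019055, chr4:147909753-147936767, minus strand), the hydroxylase of helical lysines that is lost in kyphoscoliotic Ehlers-Danlos syndrome, was at 63.8, 75.9 and 75.7 CPM in CTR. In VPA it was listed at 0 in replicate 1, stood at 41.8 and 12.8 CPM in replicates 2 and 3, and reached 80.1 CPM in replicate 4, the highest value of all 7 libraries. CTR libraries were close together and VPA libraries spread on both sides of them, with a log2 fold change of -1.09 (SE 1.04, edgeR adjusted p = 0.903), an interval of -3.52 to 1.34, and a log2 ratio of -0.68 without the value at 0. The fitted value was -1.92 without VPA replicate 4 and -0.67 without VPA replicate 1, and it was -0.25 without VPA replicates 1 and 3 and -1.94 with limma-voom. With the replicate block by number, which leaves out VPA replicate 4, it was -2.80.

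Plod2 (ENSMUSG00000032374, chr9:92542223-92608428, plus strand), the telopeptide lysyl hydroxylase tied to the stable crosslinks of scar collagen, was at 29.9, 27.0 and 26.9 CPM in CTR and at 28.1, 28.9, 20.1 and 46.1 CPM in VPA. VPA replicate 3 was the lowest and VPA replicate 4 the highest of the 7. The means of 27.9 ± 1.74 CPM (SD, n = 3) and 30.8 ± 10.9 CPM (SD, n = 4) gave a log2 fold change of 0.14 (SE 0.326, edgeR adjusted p = 0.965) with a 95% interval of -0.62 to 0.90, and its sign turned when VPA replicate 4 was left out (-0.12). Plod3 (ENSMUSG00000004846, chr5:136987019-136996648, plus strand), which codes for an enzyme that both hydroxylates lysine and adds sugars to it, was at 65.8, 40.2 and 61.4 CPM in CTR and at 55.5, 56.0, 52.2 and 57.4 CPM in VPA. All VPA values lay inside the CTR range. The means were 55.8 ± 13.7 (SD, n = 3) and 55.3 ± 2.20 CPM (SD, n = 4), and the log2 fold change of -0.01 (SE 0.216, edgeR adjusted p = 0.996) had a 95% interval of -0.51 to 0.49. Plod3 shares 529 exon bases with Znhit1 on the other strand, which had 716 counts in all, and whether the counting used strand is not given in the sources used here. The log2 sign of Plod3 changed with the scaling, being 0.0016 with RLE factors and 0.0056 with upper quartile factors.

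The 3 lysyl oxidases all had fold changes below 0, with overlap of the groups in each gene. Lox (ENSMUSG00000024529, chr18:52516067-52529867, minus strand), the founding member that oxidizes lysine in collagen and elastin, was at 30.7, 19.9 and 23.0 CPM in CTR against 20.2, 5.23, 14.5 and 11.3 CPM in VPA. Only VPA replicate 1 reached the CTR range. The means were 24.6 ± 5.57 CPM (SD, n = 3) and 12.8 ± 6.26 CPM (SD, n = 4), a log2 fold change of -0.95 (SE 0.499, edgeR adjusted p = 0.707) with a 95% interval of -2.11 to 0.22. The value was -1.52 with limma-voom (adjusted p = 0.251) and -1.59 without VPA replicates 1 and 3 (edgeR adjusted p = 0.479). Loxl1 (ENSMUSG00000032334, chr9:58287738-58313186, minus strand), an oxidase known chiefly for elastic fibers, was at 19.3, 6.90 and 14.3 CPM in CTR, was listed at 0 in VPA replicates 1 to 3 and stood at 12.1 CPM in VPA replicate 4. The VPA library with a count lay within the CTR range. The log2 fold change was -2.19 (SE 1.70, edgeR adjusted p = 0.860) with an interval of -6.16 to 1.77, and the log2 ratio was -0.16 without the values at 0. Without VPA replicate 4 every VPA library would be at 0, and the fitted value (-8.12) then depends on the prior count and is no bound.

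Loxl2 (ENSMUSG00000034205, chr14:69609068-69695834, plus strand), an oxidase that is raised in fibrotic liver and also acts on basement membrane collagen, was at 120, 80.6 and 113 CPM in CTR and at 52.9, 94.4, 64.2 and 62.7 CPM in VPA. VPA replicate 2 lay above CTR replicate 2 and the other 3 VPA libraries lay below all CTR libraries. The means of 105 ± 21.1 CPM (SD, n = 3) and 68.5 ± 17.9 CPM (SD, n = 4) gave a log2 fold change of -0.60 (SE 0.247, unadjusted p = 0.0426, edgeR adjusted p = 0.575) with a 95% interval of -1.18 to -0.03, and it was -0.40 without VPA replicates 1 and 3. Summed over the 3 oxidases, the level was 107 to 170 CPM in CTR and 73.1 to 99.6 CPM in VPA, without overlap. That sum, given as a description, includes the 3 values of Loxl1 listed at 0. With Loxl3, a lysyl oxidase of the companion list (log2 fold change 0.65, SE 0.359, edgeR adjusted p = 0.723), the sums were 126 to 190 CPM in CTR and 102 to 134 CPM in VPA and overlapped. The sums of the lysyl hydroxylases (143 to 164 CPM in CTR, 83.6 to 184 CPM in VPA) and of the prolyl 4-hydroxylase alpha subunits (36.3 to 50.8 CPM in CTR, 22.9 to 54.4 CPM in VPA) overlapped too.

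Pcolce (ENSMUSG00000029718, chr5:137605103-137613784, minus strand), the procollagen C-proteinase enhancer, had the fold change furthest from 0 of the 10 genes. It had 128, 96 and 61 counts in CTR, which are 50.4, 18.9 and 33.4 CPM, and in VPA it was listed at 0 in replicates 1, 3 and 4 and had 22 counts (6.76 CPM) in replicate 2. Every VPA library was below every CTR library. The log2 fold change was -4.04 (SE 1.33, unadjusted p = 0.0173, edgeR adjusted p = 0.487) with a 95% interval of -7.14 to -0.94. Without the values at 0 it rested on 1 VPA library and was -2.34, and no test can be made of it. Without VPA replicate 2 every VPA library would be at 0, and the fitted value (-9.27) is again no bound. Pcolce shares 112 exon bases with Fbxo24, which had 0 counts, and with Gm36266 on the other strand, which had 61 counts in all.

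**Figure D3:**
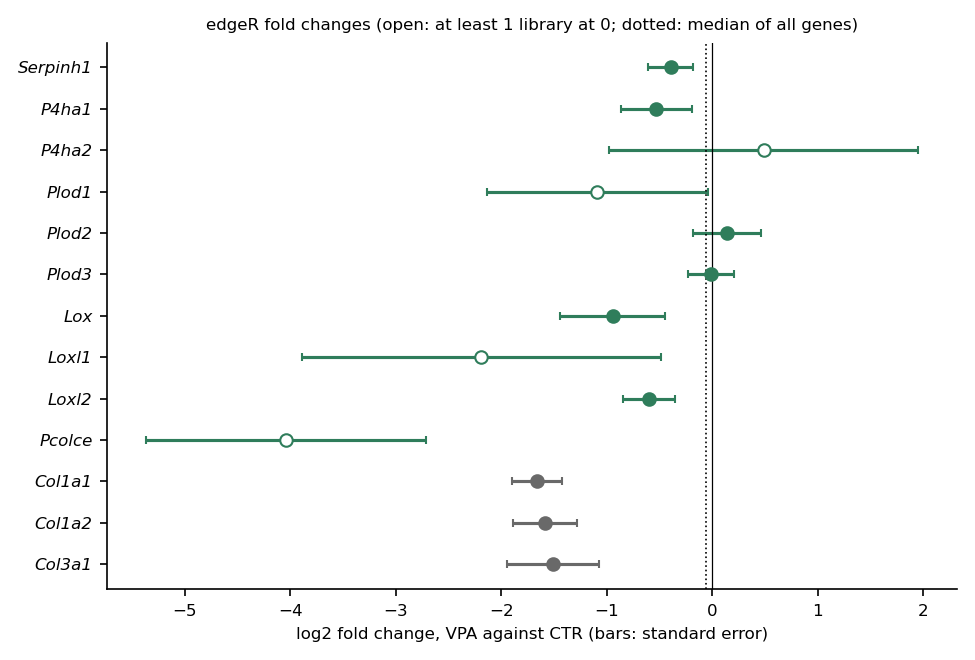
Log2 fold changes of VPA against CTR from edgeR for the 10 genes (green) and the 3 collagens Col1a1, Col1a2 and Col3a1 (grey), with bars for the standard error, open circles for genes with a library at 0 and a dotted line at the median of all genes (-0.06). The collagens lie between -1.66 and -1.51, and the 6 genes without a value at 0 between -0.95 and 0.14.

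The 3 main fibrillar collagens, the substrates of these enzymes, had log2 fold changes between -1.66 and -1.51, below those of 8 of the 10 genes, and the difference was not tested. Col1a1, the alpha1 chain of type I collagen, was at 949, 515 and 704 CPM in CTR and at 238, 172, 244 and 261 CPM in VPA, with a log2 fold change of -1.66 (SE 0.239, edgeR adjusted p = 0.112). The corresponding log2 fold changes were -1.58 (adjusted p = 0.213) for Col1a2 and -1.51 (adjusted p = 0.417) for Col3a1. All 3 collagens had VPA libraries below every CTR library, and none passed the adjusted threshold in edgeR. The study names Col1a1 and Col3a1 among genes downregulated with VPA, and its methods name DESeq2. That tool called 115 genes lower here, against 0 with edgeR, and its values for the collagens are not given here. Of 9 fibrillar collagen genes 7 were tested, with a median log2 fold change of -1.51, and 6 were below 0, against 54.2% of all genes tested. In 4 of the 7 the VPA libraries were all below CTR, against 7.41% of all genes. The fourth was Col5a3, named after its values were seen, which was listed at 0 in VPA replicates 1 to 3 and stood at 32.5 CPM in VPA replicate 4, just under the CTR range of 32.9 to 46.9 CPM.

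To put enzyme against substrate within each library, counts were divided by the summed counts of Col1a1, Col1a2 and Col3a1. Per 100 collagen counts Plod3 had 2.57 to 3.39 in CTR and 7.15 to 11.3 in VPA, and Plod2 had 1.17 to 2.28 in CTR and 3.34 to 5.74 in VPA. Loxl2 had 4.69 to 6.80 in CTR and 7.81 to 15.7 in VPA. For these 3 of 10 genes all VPA libraries were above all CTR libraries, which was so for 49.5% of all genes tested, a larger share. Serpinh1 had 3.97 to 8.68 in CTR and 8.68 to 19.3 in VPA, touching at the edge, and P4ha1 had 1.37 to 2.62 and 2.54 to 5.53. Lox, with 1.20 to 1.68 in CTR and 0.871 to 4.12 in VPA, overlapped on both sides.

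Pcolce alone among the 10 had a lower ratio in every VPA library, with 1.60 to 1.97 counts per 100 collagen counts in CTR and 1.13 or 0 in VPA. That held for 0.487% of all genes tested. The 3 VPA libraries at 0 enter that comparison, and no test was made of the ratios.

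**Figure D4:**
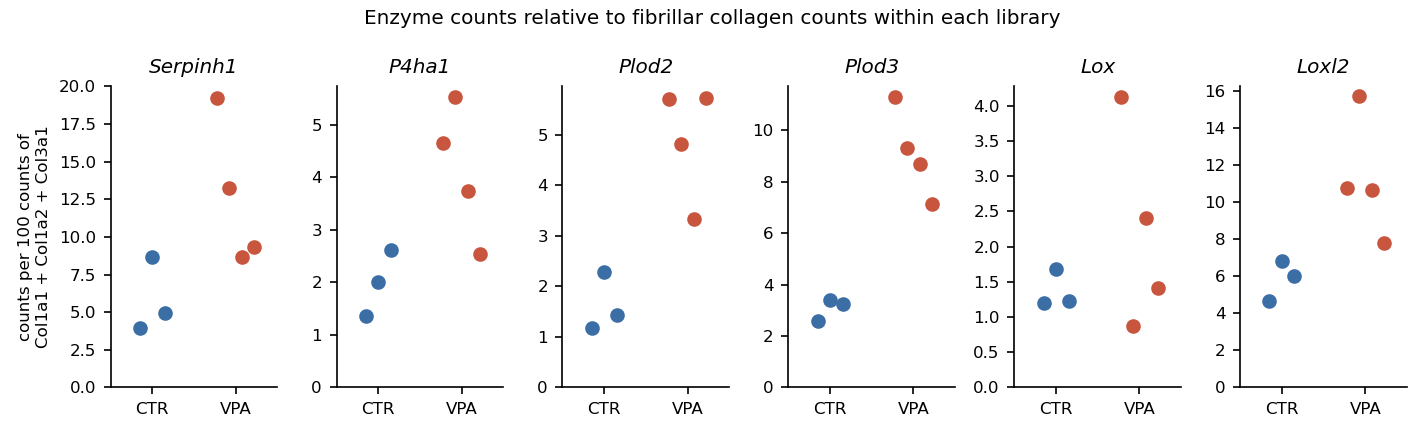
Counts per 100 counts of Col1a1, Col1a2 and Col3a1 in each library for the 6 genes with no value at 0, CTR in blue (n = 3) and VPA in red (n = 4). Plod2, Plod3 and Loxl2 have all VPA points above CTR, and Lox overlaps (1.20 to 1.68 in CTR against 0.871 to 4.12 in VPA).

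Other genes of the same steps were taken from a list of 34 companions, of which 25 were tested. Of these 17 had a log2 fold change below 0 and 8 above, against 54.2% of all genes tested below 0, and the median was -0.15. None of the 25 passed the adjusted threshold in edgeR, and 3 were lower at an unadjusted p of 0.05, against 4.62% of all genes. In the list of hydroxylation and glycosylation 6 of 9 genes were tested and 4 were below 0. P4hb, the beta subunit that every prolyl 4-hydroxylase tetramer shares, was at 153, 196 and 265 CPM in CTR and at 191, 251, 172 and 147 CPM in VPA (log2 fold change -0.10, SE 0.248, edgeR adjusted p = 0.967). Colgalt1, which adds galactose to hydroxylysine, was at -0.33 (adjusted p = 0.957) and P3h1, a prolyl 3-hydroxylase, at 0.29 (adjusted p = 0.915). The groups overlapped in all 3.

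In the list of folding and export 12 of 13 genes were tested, 9 of them below 0, with a median log2 fold change of -0.14. Pdia3, a disulfide isomerase of the endoplasmic reticulum, was at 438, 486 and 619 CPM in CTR and at 308, 364, 308 and 296 CPM in VPA, without overlap (log2 fold change -0.69, SE 0.161, edgeR adjusted p = 0.295). Tmem38b, an ion channel of the endoplasmic reticulum whose loss causes brittle bones, was at 8.27, 5.12 and 5.48 CPM in CTR and at 13.1, 13.2, 16.9 and 9.06 CPM in VPA, without overlap in the other direction (log2 fold change 1.05, SE 0.530, edgeR adjusted p = 0.685). The general chaperone genes Hspa5 (log2 fold change -0.15, adjusted p = 0.945) and Hsp90b1 (log2 fold change -0.10, adjusted p = 0.955) had overlapping groups.

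In the list of processing and crosslinking 7 of 12 genes were tested, 4 of them below 0, with a median log2 fold change of -0.41. Bmp1, the C-proteinase that Pcolce enhances, was at 123, 78.1 and 98.7 CPM in CTR and at 45.7, 21.5, 80.3 and 46.1 CPM in VPA, where only replicate 3 reached the CTR range (log2 fold change -1.06, SE 0.405, unadjusted p = 0.0327, edgeR adjusted p = 0.561). Sparc, a secreted collagen-binding protein gene, was at 1989, 1261 and 1579 CPM in CTR and at 760, 568, 747 and 1053 CPM in VPA, without overlap (log2 fold change -1.04, SE 0.244, edgeR adjusted p = 0.295). Fn1, which codes for fibronectin, was at 0.21 (adjusted p = 0.955) and Furin, the protease that matures Bmp1, at -0.49 (adjusted p = 0.611) on the log2 scale. Pcolce2, which codes for a second enhancer of that proteinase, had overlapping groups and a fold change in the other direction from Pcolce (log2 fold change 0.83, SE 0.718, edgeR adjusted p = 0.889).

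Hypoxia-inducible genes were compared because P4ha1, P4ha2, Plod2, Lox and Loxl2 are known to respond to low oxygen. Of 25 such genes 22 were tested, 14 with a log2 fold change below 0 and 8 above, against 54.2% of all genes tested below 0. The median was -0.21, or -0.09 in the 18 genes without a value at 0. None passed the adjusted threshold. At an unadjusted p of 0.05 in edgeR 2 were lower, against 4.62% of all genes, and 1 was higher, against 3.65%. In 3 the VPA libraries were all below CTR, against 7.41% of all genes, and in 1 all above, against 4.44%. The glycolytic genes Ldha (log2 fold change -0.61, SE 0.216, edgeR adjusted p = 0.534) and Eno1 (log2 fold change -0.93, SE 0.336, edgeR adjusted p = 0.541) were lower at an unadjusted p of 0.05, Eno1 without overlap. Aldoa, also glycolytic, was at 491, 475 and 507 CPM in CTR and 343, 409, 446 and 418 CPM in VPA, without overlap (log2 fold change -0.28, edgeR adjusted p = 0.650), and Gpi1 overlapped (log2 fold change -0.26, adjusted p = 0.784). Mxi1, a Myc antagonist gene, was higher, at 37.4, 39.0 and 34.5 CPM in CTR and 72.5, 68.6, 53.8 and 52.1 CPM in VPA (log2 fold change 0.74, SE 0.204, edgeR adjusted p = 0.389). Ddit4, a stress-induced inhibitor of mTOR signaling, was listed at 0 in 3 of 4 VPA libraries and stood at 68.7 CPM in the other, against 75.3 to 132 CPM in CTR.

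**Figure D5:**
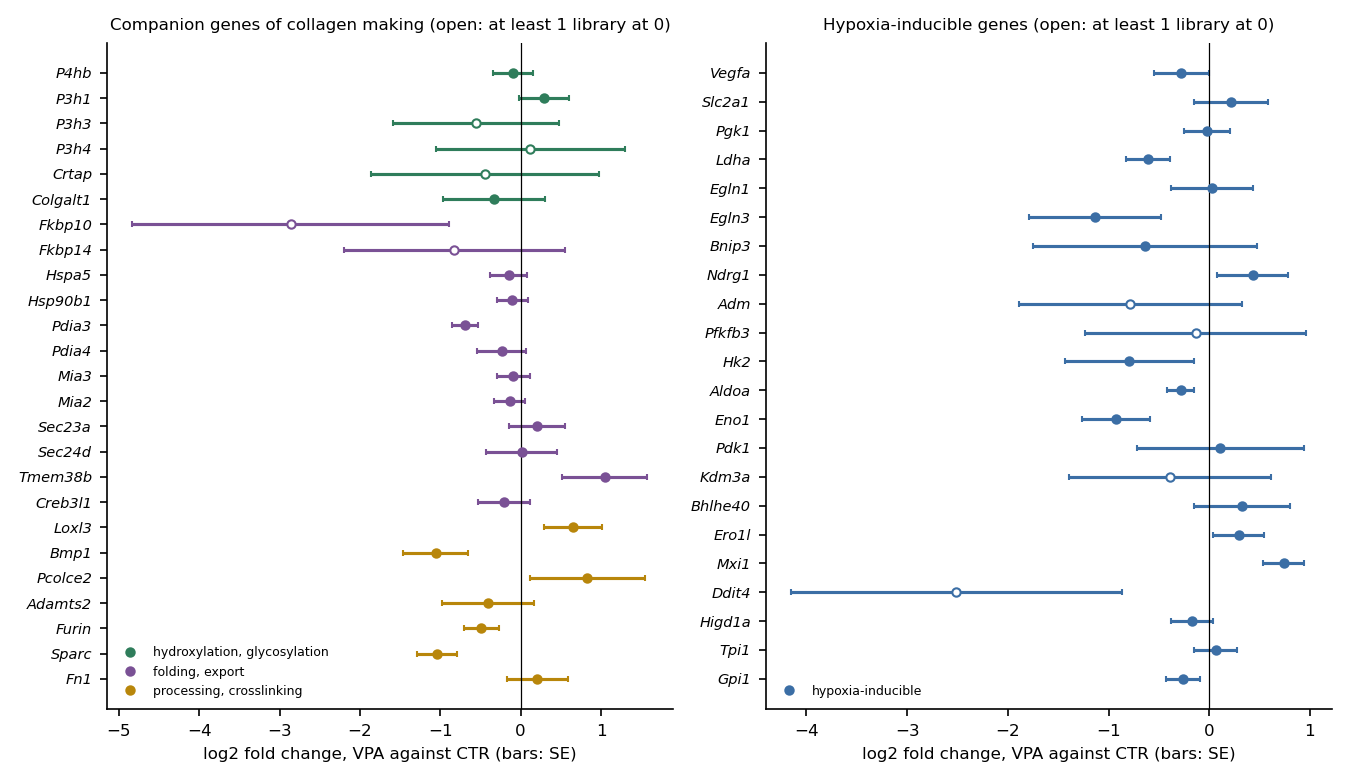
Log2 fold changes of VPA against CTR from edgeR for the 25 tested companion genes of collagen making (left, coloured by step) and the 22 tested hypoxia-inducible genes (right), with bars for the standard error and open circles for genes with a library at 0. Points lie on both sides of 0 in both panels, with medians of -0.15 and -0.21.

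Marker genes of liver cell types give the makeup beside these levels. Summed over 10 stellate and mesenchymal markers, the level was 1410 to 2523 CPM in CTR and 1316 to 2636 CPM in VPA, with overlap. Within that list 7 of 10 genes had a log2 fold change below 0, the median was -0.53, and Dcn, the decorin gene, carried much of the sum in the other direction, at 410 to 1141 CPM in CTR and 601 to 1797 CPM in VPA. Vim, the vimentin gene, was at 596 to 722 CPM in CTR and 213 to 367 CPM in VPA, without overlap (log2 fold change -1.08, SE 0.201, edgeR adjusted p = 0.193). The part of stellate and mesenchymal cells in the enzyme levels was not tested. Hepatocyte markers (10 genes) summed to 4931 to 11301 CPM in CTR and 2799 to 9942 CPM in VPA, with Alb counted in every library. Cholangiocyte markers (6 genes) summed to 268 to 616 CPM in CTR and 258 to 741 CPM in VPA, mostly from Spp1 and Sox9, while the defining marker Krt19 was at 0 in all 3 CTR libraries and in VPA replicates 1 and 3. Endothelial markers (8 genes) summed to 261 to 346 CPM in CTR and 115 to 277 CPM in VPA, with 3 VPA libraries below all CTR libraries. Of these 8 genes 7 were tested, 6 had a log2 fold change below 0 and Lyve1 was above 0 (0.20), and the median was -0.61. Kdr was highest of all libraries in VPA replicate 2, and Clec4g was at 0 in CTR and had a count in VPA replicates 2 and 4. Tek had a count in each CTR library, up to 16.4 CPM, and was at 0 in every VPA library (edgeR adjusted p = 0.239), and Cdh5 was at 65.2 to 80.0 CPM in CTR, at 0 in VPA replicates 1 and 2, and at 29.7 and 26.4 CPM in the others. Dcn, Vim, Lyve1, Kdr, Clec4g, Tek and Cdh5 were named after their values were seen. Macrophage markers (8 genes) summed to 156 to 208 CPM in CTR and 202 to 327 CPM in VPA, with 3 VPA libraries above all CTR libraries and with the defining markers Adgre1 and Marco at 0 in every library. The part of endothelial cells and macrophages in the levels of the collagen-modifying genes was not tested.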

How the data were processed

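RNA from mouse PCLS was made into QuantSeq 3′ end libraries. Per the labels and the study's methods, the authors trimmed the reads, mapped them to GRCm38 (mm10) with STAR and assembled genes with StringTie. They deposited raw counts per Ensembl gene as whole numbers, and the counting settings and versions are not given in the sources used here. The GENCODE annotation for that build gave symbols and coordinates, and 346 genes had no symbol.

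All 7 libraries were fitted with edgeR 4.0.16 in R 4.3.3 (filterByExpr, TMM, robust quasi-likelihood test, condition as the only term), with Benjamini-Hochberg adjustment over all tested genes and a threshold of 0.05. The fit was tested on simulated data. Replicates were further apart than counting noise allows (chi-square per degree of freedom 14.7 to 27.3), so none was a repeat deposit of the same counts. This says nothing of separate animals, and libraries counted as replicates by their labels. Alternatives were DESeq2 1.42.0, limma-voom (limma 3.58.1), RLE and upper quartile scaling, other filters, blocks by number and leaving out libraries. The members and lists were chosen with earlier results of these data known. Named are all 10 members, the collagens Col1a1, Col1a2 and Col3a1, and, from the companion and hypoxia lists, genes at an unadjusted p under 0.05 or without overlap and the 3 highest in CPM per list. Col5a3, Loxl3, Pcolce2 and a few cell type markers were named after their values were seen. Leaving out values at 0, and VPA replicates 1 and 3 together, was added after the data were seen.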

Additional observations from a re-analysis of the deposited data

Results flagged for a closer look

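Of 16 measures, 3 had 1 VPA library far from the others by Dixon's criterion, which chance alone meets in about 1 of 20 groups of measured values (a share of 0.05). That share does not apply to Loxl1 and Pcolce, where 3 values at 0 make any count in the remaining library meet the criterion. Loxl1 stood at 12.1 CPM in VPA replicate 4 and was listed at 0 in the other VPA libraries. Pcolce stood at 6.76 CPM in VPA replicate 2 and was listed at 0 in the others. VPA replicate 2 had 3102450 counts on genes, above the 1400887 to 1515954 of the other VPA libraries. The cause of none of these was tested.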

How the results depend on the processing

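No member passed an adjusted p of 0.05 under any of the alternatives run. The lowest adjusted p of any member under any of them was 0.155, for Pcolce without VPA replicate 2, where its VPA libraries were all at 0. Of 170 fold changes under alternatives, 158 kept their direction and 12 turned it. The count of members lower at an unadjusted p of 0.05 (2) was 1 with DESeq2, 1 with the replicate block by number and 0 to 3 when each replicate was left out, being 3 without VPA replicate 1, 0 without CTR replicate 1 and 1 without CTR replicate 3 or VPA replicate 3. The share of all genes at that p was 2.83% to 6.22% over left-out replicates. It is not given here for DESeq2 or for either block, so the counts in those settings cannot be read against it. Members below 0 (8) numbered 4 of the 6 with at least 10 counts in every library. Members with all VPA libraries below CTR (1) numbered 3 with no filter on low counts (6.08% of all genes), 0 with at least 10 counts (6.78%) and 3 without VPA replicates 1 and 3 (15.6%), and 1 to 6 when each replicate was left out. That count was 6 without CTR replicate 2 and 3 without CTR replicate 3 or VPA replicate 1, 2 or 4. Members with all VPA above CTR (0) numbered 1 without VPA replicates 1 and 3, against 12.3% of all genes. P4ha2 turned to -0.10 without CTR replicate 3, within a range of -0.10 to 1.05 over left-out replicates. Plod2 turned to -0.14 with the replicate block by number, and ranged from -0.12 to 0.29 over left-out replicates. Plod3 turned to 0.0016 with RLE, 0.0056 with upper quartile, 0.0065 with at least 10 counts, 0.083 with limma-voom, 0.022 with the block by slice culture and 0.029 without VPA replicates 1 and 3, and ranged from -0.21 to 0.11 over left-out replicates. The causes were not tested beyond the fewer genes or libraries that these settings leave. Deviations from the group means correlated at 0.11, 0.03 and 0.05 between libraries of slice cultures 71, 72 and 74, positive but under 0.1 in 2 of 3 pairs. They correlated at -0.05 to 0.11 between those of the same replicate number. Replicate numbers 2 and 3 pair the same libraries as slice cultures 74 and 71, so these are not separate checks. Whether libraries of a shared slice culture number are paired cannot be settled from them, and the main fit took the libraries as unpaired. Neither block changed the call of a member at the adjusted threshold. The block by number leaves out VPA replicate 4 and the block by slice culture leaves out VPA replicate 1, which have no partner. With the block by slice culture the count at an unadjusted p of 0.05 was again 2, but of other members, Lox and Serpinh1 (edgeR adjusted p = 0.600 for both) in place of Loxl2 (edgeR adjusted p = 0.726) and Pcolce (edgeR adjusted p = 0.658). With the block by number it was Loxl1 alone (edgeR adjusted p = 0.534), whose VPA libraries are all at 0 in that fit since VPA replicate 4 is left out. Within the 3 shared slice cultures 4 members were lower with VPA in 3 of 3, namely Lox, Serpinh1, Loxl1 and Pcolce, against 19.9% of all genes tested, and Loxl1 and Pcolce were listed at 0 in 2 of those VPA libraries each. Over all genes edgeR called 1 higher and 0 lower at an adjusted p of 0.05, against 17 and 19 with at least 10 counts in every library and 39 and 115 with DESeq2, 2 and 8 with no filter, and 0 and 0 with either block. Depths of 1400887 to 4773750 counts limit the genes with few counts, and the values listed at 0 limit Loxl1, P4ha2, Plod1 and Pcolce most.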
